A study of Mus musculus with 6 samples.

Results

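The 43 genes described here encode proteins of the G2 phase and of mitosis: cyclins and their kinase, spindle checkpoint and kinetochore proteins, spindle motors, cytokinesis factors and condensin subunits. They form a list of named genes, and a gene counted as measured where the annotation of the Affymetrix mouse array gives it a probe set that names no other gene. This held for 42 of the 43 genes, with 93 probe sets, out of 18193 genes measured in all. Ccnb1, the gene of cyclin B1, is not analysed here. Each gene was read from its brightest probe set over the 6 arrays, and all 3 probe sets of Cdc20 are described. All 42 passed the filter on low signal described below.

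The study asked what vimentin, an intermediate filament protein of macrophages and other mesenchymal cells, does in atherosclerosis. The cells were macrophages grown from bone marrow of wild-type mice and of their vimentin-deficient littermates, with 3 arrays for each genotype. All mice were on the C57BL/6 background, 17 weeks old and fed chow, and vimentin-deficient names the only genotype difference in the labels. Femoral marrow from both genotypes was cultured at normal oxygen with conditioned medium of the CMG14-12 line, which supplies macrophage colony-stimulating factor, the growth factor that keeps such cells alive and dividing. The sources used here do not name the vimentin allele, the time in culture or the cell density at harvest. The labels call the samples biological replicates but do not say whether each came from a separate mouse, so the spread between arrays may be partly technical.

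In dividing cells these transcripts are made in a wave that begins in S phase and peaks in G2 and mitosis. CDK1 with cyclin A or B drives entry into mitosis, kinetochore proteins attach chromosomes to the spindle, and the anaphase-promoting complex with CDC20 ends the phase by destroying cyclins and other targets. In resting cells the genes are held silent by the DREAM complex, and in dividing cells MuvB with B-MYB and FOXM1 activates them. Their promoters often carry the letters TTTGAA, the core of the cell cycle genes homology region (CHR), near the start site and CCAAT boxes, which NF-Y binds, just upstream. Precursors of macrophages divide under macrophage colony-stimulating factor and leave the cycle as they mature.

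The RefSeq promoter table (GRCm38.p6) held 35 windows for 33 of the 42 measured genes, each of 300 bases, 250 before and 50 after the start. It was searched for TTTGAA, for the box CCAAT and for the E2F-like TTTNGCGC, on both strands, without removing matches that overlap. TTTGAA was found in 28 of the 35 windows (80%), against 17.9% of all 32851 windows of the table and 12.4% of the 13729 windows of tested genes. It lay within 50 bases of the start in 26 member windows (74.3%), against 3.15% of the windows of tested genes. CCAAT was found in 27 member windows (77.1%), against 37.4% of all windows and 37.2% of those of tested genes. More than 1 CCAAT box was found in 18 member windows (51.4%), against 13.4% for tested genes. Both motifs together were found in 25 member windows (71.4%), against 4.84% for tested genes. TTTNGCGC was found in 2 (5.71%), those of Cdk1 and Racgap1, against 1.38% of all windows and 2.28% of those of tested genes. No match to the 3 motifs was found in 5 windows (14.3%), against 51% of all windows. These 5 were those of Birc5, Mad2l1, Ncaph, Nuf2 and Nusap1. The distance to the start and the spacing of CCAAT boxes, given next, were examined after the motif positions had been seen. A match is a description of letters and was not tested as a binding site.

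The 5 windows below are shown because they belong to textbook cell cycle promoters and to genes whose values carry the results. They are written along the gene's strand, 5′ to 3′, and capitals mark the 3 motifs, read on either strand.
Ccnb2 (chr9:70421505-70421804, - strand): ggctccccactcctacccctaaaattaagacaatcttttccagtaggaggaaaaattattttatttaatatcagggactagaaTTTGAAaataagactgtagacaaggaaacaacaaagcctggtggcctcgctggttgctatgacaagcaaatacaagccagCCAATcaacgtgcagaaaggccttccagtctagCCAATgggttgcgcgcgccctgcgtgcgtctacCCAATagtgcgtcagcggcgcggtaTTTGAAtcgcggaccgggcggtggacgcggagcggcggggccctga
Cdk1 (chr10:69352863-69353162, - strand): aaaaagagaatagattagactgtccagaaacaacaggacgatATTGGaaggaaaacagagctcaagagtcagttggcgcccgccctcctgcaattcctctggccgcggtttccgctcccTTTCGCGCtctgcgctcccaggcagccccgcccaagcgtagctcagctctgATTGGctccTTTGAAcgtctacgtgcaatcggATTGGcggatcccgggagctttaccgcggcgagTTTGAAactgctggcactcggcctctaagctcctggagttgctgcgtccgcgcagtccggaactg
Plk1 (chr7:122159185-122159484, + strand): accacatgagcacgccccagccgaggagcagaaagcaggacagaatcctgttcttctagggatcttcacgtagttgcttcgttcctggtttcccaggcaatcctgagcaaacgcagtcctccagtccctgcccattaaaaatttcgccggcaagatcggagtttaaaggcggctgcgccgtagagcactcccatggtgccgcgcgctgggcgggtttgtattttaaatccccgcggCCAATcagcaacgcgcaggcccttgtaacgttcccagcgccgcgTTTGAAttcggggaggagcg
Cdc20 (chr4:118437294-118437593, - strand): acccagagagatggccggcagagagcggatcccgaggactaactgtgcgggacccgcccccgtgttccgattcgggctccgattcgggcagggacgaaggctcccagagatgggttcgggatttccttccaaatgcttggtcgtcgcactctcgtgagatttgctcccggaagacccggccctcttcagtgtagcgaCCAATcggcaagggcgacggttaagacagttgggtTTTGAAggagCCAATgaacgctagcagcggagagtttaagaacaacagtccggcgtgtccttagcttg
Birc5 (chr11:117848987-117849286, + strand): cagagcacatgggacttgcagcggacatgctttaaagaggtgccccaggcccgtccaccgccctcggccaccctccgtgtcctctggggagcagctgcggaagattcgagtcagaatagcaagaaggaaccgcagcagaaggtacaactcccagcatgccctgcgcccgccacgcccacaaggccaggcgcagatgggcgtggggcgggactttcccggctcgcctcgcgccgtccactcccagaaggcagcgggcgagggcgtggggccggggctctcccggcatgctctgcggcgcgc
In the Ccnb2 window the 3 CCAAT boxes begin 87, 54 and 21 bases before the start, and a TTTGAA begins 4 bases after it and another 167 bases before it. A pair of CCAAT boxes whose first bases lie 30 to 36 bases apart was found in 8 of the 35 member windows (22.9%), against 2.79% of the windows of tested genes. The Cdc20 window holds a TTTGAA 18 bases before the start between 2 CCAAT boxes, and that of Plk1 a CCAAT 14 bases before and a TTTGAA 30 bases after it. The window of Birc5 holds none of these letters.

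Before the genes themselves, a few facts of the arrays bear on every value. Vim, the targeted gene, read 8.20, 6.96 and 7.13 on vimentin-deficient replicates 1, 2 and 3 and 13.41, 13.24 and 13.31 on wild-type replicates 1, 2 and 3, on the log2 scale (difference -5.89, SE 0.31, limma adjusted p = 0.00414). Vimentin-deficient replicate 3 stood apart, with correlations across probe sets of 0.975 to 0.979 with the other 5 arrays, which correlated among themselves at 0.992 to 0.998. The 3′ minus 5′ difference of the Actb control probe sets, a measure of RNA integrity, was 0.23 on that array and 0.18 to 0.21 on the others, and that of Gapdh was 0.013 against -0.017 to 0.0083. The genotype comparison of the members is therefore given with and without that array. The macrophage markers Lyz2 and Cd68 were bright on all arrays, at 13.60 or above, and the summed linear signal of the 10 macrophage markers was 61244 to 70828 in vimentin-deficient and 62351 to 66623 in wild-type cells.

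The 42 genes were low together on vimentin-deficient replicate 3 and slightly high on the other 2 vimentin-deficient arrays. Relative to the wild-type mean, their mean was 0.42, 0.19 and -1.50 log2 units on vimentin-deficient replicates 1, 2 and 3. On wild-type replicates 1, 2 and 3 it was 0.18, -0.23 and 0.05. The same means over all 13445 tested genes lay between -0.04 and 0.01. In all 42 genes replicate 3 was the lowest of the 6 arrays, as it was in 35.9% of tested genes, and in 26 it lay over 1 log2 unit below the lowest wild-type array (0.878% of tested genes). In cultures measured in bulk, fewer dividing cells and less of each transcript per cell cannot be told apart.

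**Figure D1:**
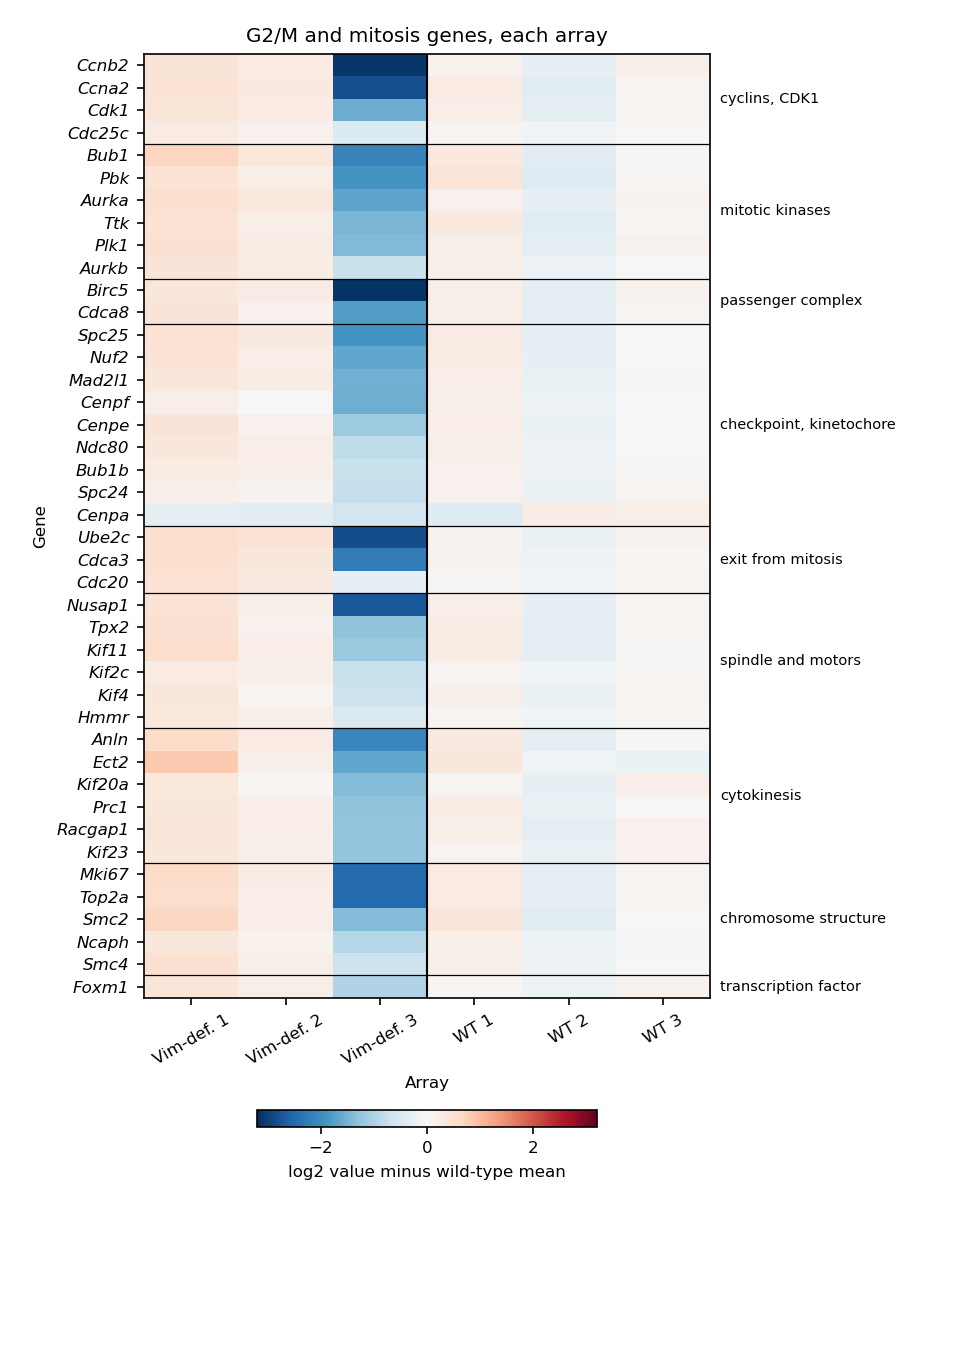
Each row is a gene and each column an array; colour gives the log2 value minus the mean of the 3 wild-type arrays, with genes grouped by role. The column of vimentin-deficient replicate 3 is blue throughout, deepest for Ccnb2 and Birc5, while Cenpa alone is below 0 on all 3 vimentin-deficient arrays.

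Set against the mean of vimentin-deficient replicates 1 and 2, replicate 3 read lower for all 42 genes, with a median difference of -1.72 log2 units and a range from -3.46 to -0.28. The median over all tested genes was -0.03. The difference was over 1 log2 unit in 34 genes, where 1.71% of tested genes were that much lower, and over 2 log2 units in 15 genes (0.327%). The 34 made up 14.8% of the 230 tested genes that were over 1 log2 unit lower, and the 15 made up 34.1% of the 44 that were over 2 log2 units lower. No member lay over 1 log2 unit higher, as 0.937% of tested genes did. These are values of a single array, and no test was made of them.

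Among the cyclins, CDK1 and its activator, 3 of 4 measured genes were over 1 log2 unit lower on replicate 3. Ccnb2, the gene of cyclin B2, read 10.57, 10.40 and 7.03 on vimentin-deficient replicates 1, 2 and 3 and 10.27, 9.88 and 10.31 on the wild-type arrays. The difference on replicate 3 was -3.46 log2 units or 10.98-fold. Ccna2, the gene of cyclin A2, which acts in S phase and G2, read 10.49, 10.34 and 7.24 against 10.31, 9.68 and 10.15. Cdk1, the kinase that both cyclins activate, read 10.93, 10.80 and 8.97 against 10.77, 10.23 and 10.64. For these 3 genes replicates 1 and 2 lay above all wild-type arrays and replicate 3 below all of them. Cdc25c, the phosphatase that activates CDK1, read 7.48, 7.34 and 6.77 against 7.31, 7.11 and 7.22, with the same order at a smaller size.

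All 6 mitotic kinase genes were over 1 log2 unit lower on replicate 3, with differences between -2.64 and -1.05. Bub1, a checkpoint kinase of the kinetochore, read 9.62, 9.27 and 6.80 in vimentin-deficient and 9.23, 8.57 and 8.97 in wild-type cells. Pbk, a kinase active in mitosis, read 10.21, 9.98 and 7.84 against 10.14, 9.35 and 9.81. Aurka, which matures the spindle poles, had a difference of -2.10, and Ttk, which starts the spindle checkpoint, -1.80. Plk1, which acts from entry into mitosis to cytokinesis, read 9.34, 9.09 and 7.44 against 9.04, 8.54 and 8.96. Aurkb, the kinase of the chromosomal passenger complex, read 9.09, 8.90 and 7.95 against 8.86, 8.49 and 8.66. Only for Pbk and Ttk did vimentin-deficient replicate 2 fall within the wild-type range, so that the groups overlapped there without replicate 3 as well.

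The partners of Aurkb in the passenger complex that are among the members differed in size. Birc5, which encodes survivin, read 10.21, 10.12 and 6.72 against 10.02, 9.56 and 9.95, a difference of -3.44 log2 units on replicate 3, where its value lies below the filter on low signal. Cdca8, which encodes borealin, read 9.69, 9.41 and 7.49 against 9.46, 8.996 and 9.35. For both, the lowest of the other 5 arrays was wild-type replicate 2. Incenp, a further partner that is not among the members, had a difference of -0.82 and is named after its values were seen.

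Of the 9 spindle checkpoint and kinetochore genes, 6 were over 1 log2 unit lower on replicate 3. All 4 genes of the NDC80 complex, which binds microtubules at the kinetochore, were lower there, with differences of -2.29 for Spc25, -1.98 for Nuf2, -1.09 for Ndc80 and -0.88 for Spc24. Spc25 read 9.98, 9.81 and 7.61 against 9.79, 9.26 and 9.54. Mad2l1, the checkpoint protein that holds back CDC20, had a difference of -1.85 or 3.62-fold, and Bub1b, its partner in the checkpoint, -0.91. The large kinetochore proteins of Cenpf and Cenpe had -1.67 and -1.41, with replicate 3 values below the same filter.

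Cenpa, the centromeric histone variant, did not follow the other members. It read 10.36, 10.32 and 10.06 on the vimentin-deficient arrays and 10.24, 10.90 and 10.84 on the wild-type arrays. Wild-type replicate 1, high for most members, was here the lowest wild-type array and lay below vimentin-deficient replicates 1 and 2. With 6 arrays it was lower in vimentin-deficient cells by a log2 fold change of -0.41 (SE 0.19, adjusted p of limma = 0.646), the smallest unadjusted p among the members at 0.0672. A second probe set of Cenpa above the filter value read 7.15, 7.12 and 7.78 against 7.18, 7.43 and 7.44, and was the only 1 of the 74 member probe sets above that value to read higher on replicate 3.

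Among the genes of exit from mitosis, Ube2c, the ubiquitin-conjugating enzyme of the anaphase-promoting complex, read 10.58, 10.49 and 7.22 against 10.18, 9.85 and 10.17. Cdca3, which has been linked to mitotic entry through degradation of the kinase WEE1, read 10.31, 10.17 and 7.56 against 9.92, 9.64 and 9.83. Both had replicates 1 and 2 above and replicate 3 below all wild-type arrays, and among the members they had the smallest limma p without replicate 3.

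Cdc20, which activates the anaphase-promoting complex, gave different sizes on its 3 probe sets. The brightest, with the suffix _x_at, read 10.30, 10.12 and 9.57 in vimentin-deficient and 9.86, 9.74 and 9.89 in wild-type cells, a difference of -0.65 on replicate 3. The second, with the suffix _at, read 10.20, 10.03 and 7.32 against 9.84, 9.54 and 9.97, a difference of -2.80. The third, again with _x_at, read 9.21, 9.11 and 8.67 against 8.90, 8.93 and 9.03, a difference of -0.49. All 3 placed replicate 3 lowest and replicates 1 and 2 highest of the 6 arrays. The log2 fold change over 6 arrays was 0.17 on the brightest, -0.60 on the second and 0.05 on the third. The suffix _x_at marks probe sets in which some probes match other sequences, and whether that accounts for the smaller difference was not tested.

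**Figure D2:**
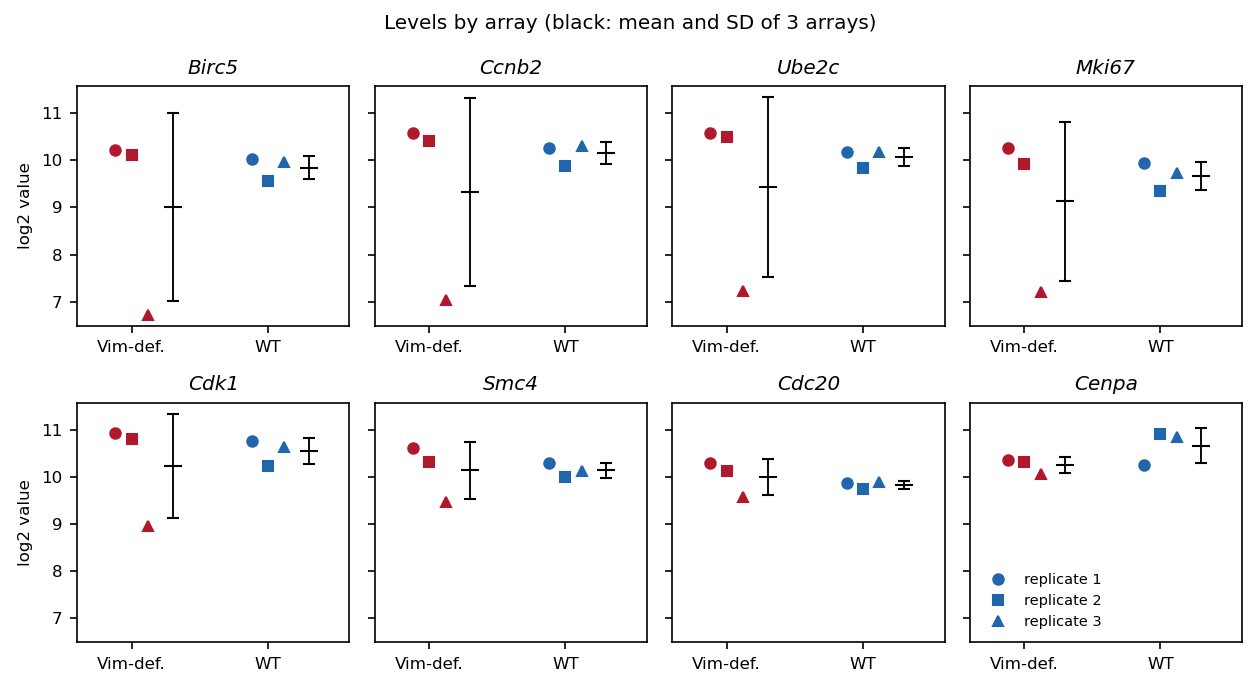
Each of the 8 panels plots the log2 value of a gene on each array, vimentin-deficient in red and wild-type in blue, with the mean and SD of 3 arrays in black and the replicate number given by the marker. For Birc5, Ccnb2, Ube2c and Mki67 the red triangle of replicate 3 lies between 6.72 and 7.22 while all other arrays lie at 9.35 or above; for Cenpa all arrays lie between 10.06 and 10.90.

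Of the 6 genes of spindle proteins and motors, 3 were over 1 log2 unit lower on replicate 3. Nusap1, which bundles spindle microtubules, read 9.80, 9.56 and 6.65 against 9.54, 9.11 and 9.44, a difference of -3.03. Tpx2, the activator of Aurora A, had -1.62, and Kif11, the motor that pushes spindle poles apart, -1.57. Hmmr, a spindle protein that is also a hyaluronan receptor, read 8.84, 8.67 and 8.04 against 8.61, 8.36 and 8.56, a difference of -0.72. Its brightest probe set is of the _x_at kind as well, and the 3 next ones, of the _a_at kind, gave -1.99, -2.04 and -1.76. Kif2c, a motor that takes microtubules apart, likewise gave -0.94 on its brightest probe set and -2.29 and -1.64 on the next 2. Kif4, a motor of the chromosome arms, has 1 probe set, which gave -0.91.

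All 6 genes of the central spindle and cytokinesis were over 1 log2 unit lower on replicate 3, within -2.50 and -1.53. Anln, the scaffold protein of the contractile ring, read 9.77, 9.43 and 7.10 against 9.46, 8.86 and 9.20. Ect2, the exchange factor that activates RhoA at the cell equator, had a difference of -2.16, and Racgap1, a subunit of the centralspindlin complex, -1.56. Kif23, the motor of the same complex, read 10.00, 9.80 and 8.37 against 9.72, 9.43 and 9.77. The values of Kif20a and Prc1, a motor and a microtubule bundler of the midzone, were -1.59 and -1.57, close to those of Kif23 and Racgap1.

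The 5 genes of chromosome structure were also over 1 log2 unit lower. Mki67, the gene of the Ki-67 protein that coats mitotic chromosomes, read 10.27, 9.92 and 7.20 against 9.94, 9.35 and 9.73. Top2a, the topoisomerase that untangles sister chromatids, read 10.65, 10.30 and 7.61 against 10.36, 9.77 and 10.14. The condensin genes had smaller differences, -1.84 for Smc2, -1.16 for Ncaph and -1.002 for Smc4. Smc4 read 10.62, 10.32 and 9.47 against 10.30, 9.99 and 10.13, so that the replicate 3 value stayed well above the low end of the array scale. Foxm1, the transcription factor that drives many of these genes, read 8.37, 8.16 and 7.03 against 8.05, 7.82 and 8.09, a difference of -1.23.

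Some members read at the dim end of the scale on replicate 3. On replicate 3, 11 of the 42 genes read below 6.93, the value that served as the filter on low signal, and none did so on any other array. These 11 were Cdc25c, Aurka, Ttk, Bub1, Birc5, Cenpe, Cenpf, Nusap1, Kif11, Kif20a and Ect2. Their differences on replicate 3 ran from -3.44 for Birc5 to -0.64 for Cdc25c. The lowest value of any probe set was 5.43, and whether the dim end of the scale limits these differences was not tested.

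The choice of probe set decided the size of the difference in several genes. Of the 93 probe sets of the members, 74 had a mean above the filter value, and 50 of these were over 1 log2 unit lower on replicate 3. In 38 of the 42 genes at least 1 probe set was that much lower, the exceptions being Cdc25c, Spc24, Kif4 and Cenpa. That count takes the most extreme probe set of a gene. The same counts were not made over all probe sets and genes of the array, so they have no share to be read against. By suffix, the median difference was -1.40 for 41 _at probe sets, -1.87 for 18 _a_at, -1.81 for 6 _s_at and -0.72 for 9 _x_at. In 8 of the 19 genes with several probe sets above the filter value these differed by over 1 log2 unit, led by Cdca3 (-2.68 on the brightest, -0.06 and -0.03 on the others) and Cdc20. The other Cdca3 probe sets read between 7.12 and 7.33 on every array.

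**Figure D3:**
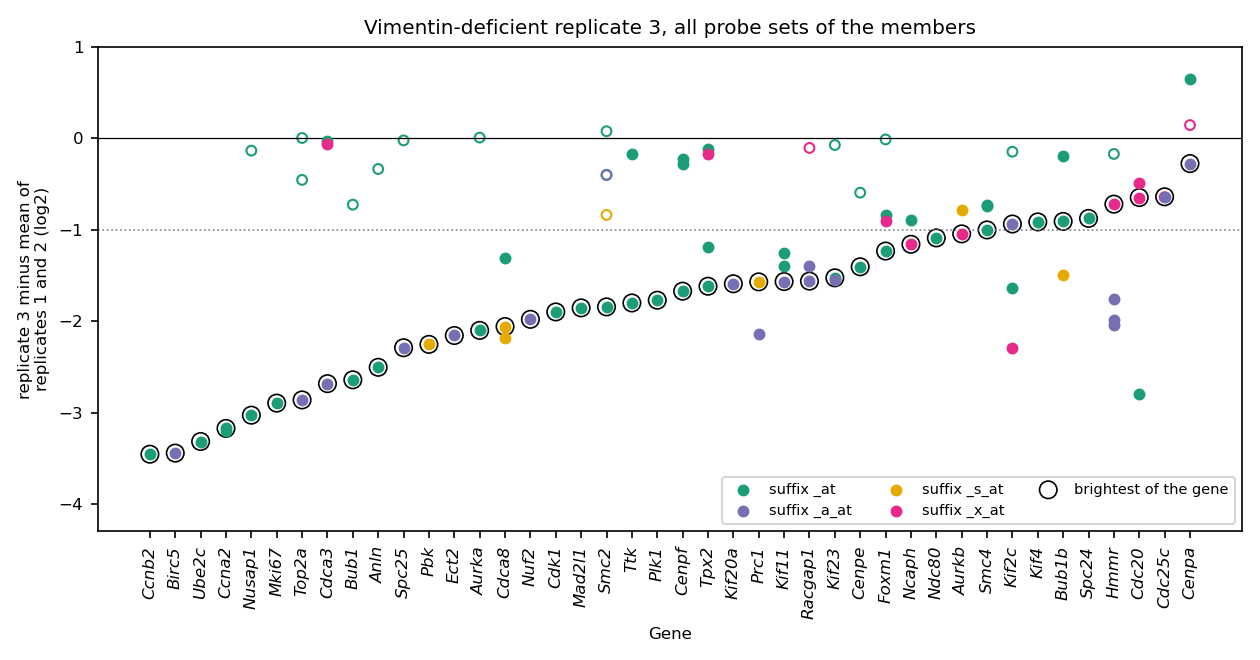
Each point is a probe set, placed by gene, with vimentin-deficient replicate 3 minus the mean of replicates 1 and 2 in log2 units on the vertical axis; colour gives the suffix, open points lie below the filter value of 6.93 and black rings mark the brightest probe set of a gene. Most rings lie below -1, and the lower points under the rings of Cdc20, Hmmr and Kif2c show probe sets with larger differences.

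The design asks which transcripts differ between vimentin-deficient and wild-type macrophages. With all 6 arrays 0 of the 42 genes passed the threshold in either direction (limma with Benjamini-Hochberg over 13445 genes), where 0.00% of tested genes were called higher and 0.0223% lower. Without adjustment, 0 members had a limma p under 0.05 as well, where 3.01% of tested genes were higher and 4.96% lower. The log2 fold change was negative in 40 genes (60.4% of tested genes) and positive in 2, Cdc20 and Hmmr (39.6%), with a median of -0.26 against -0.02 over all tested genes. Of the members 0 had all 3 vimentin-deficient arrays below all wild-type arrays (10.1% of tested genes) and 0 had them above (5.32%). The largest values were those of Birc5 (-0.83, SE 0.89, limma adjusted p = 0.851) and Ccnb2 (-0.82, SE 0.89, limma adjusted p = 0.854). In each the SE is larger than the difference, and in 41 of 42 genes the SD among vimentin-deficient arrays was larger than that among wild-type arrays, with a median ratio of 4.12. The wild-type mean of Mki67, for example, was 9.67 ± 0.30 (SD, n = 3), and the vimentin-deficient mean 9.13 ± 1.68 (SD, n = 3). The exception was Cenpa. Over all tested genes the median SD was also larger among vimentin-deficient arrays, at 0.0998 against 0.0684 among wild-type arrays. For the members these medians were 0.999 and 0.238. The share of tested genes with the larger SD among vimentin-deficient arrays was not counted.

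Without vimentin-deficient replicate 3 the direction turned. In that fit of 2 against 3 arrays the log2 fold change was positive in 41 of the 42 genes (44.5% of tested genes), with a median of 0.32 against -0.01 over all tested genes, and negative in Cenpa alone (-0.32, SE 0.17), where 55.5% of tested genes were negative. Cdca3 rose by 0.45 (SE 0.10, limma adjusted p = 0.0471) and was the only member past the threshold, where 1.31% of tested genes were called higher and 1.03% lower. Ube2c (0.47, SE 0.11, limma adjusted p = 0.0519) and Cdc20 (0.38, SE 0.09, limma adjusted p = 0.0592) lay close to it. The value of Cdca3 is that of its brightest probe set. On its other probe sets, also above the filter value, the mean of replicates 1 and 2 minus the wild-type mean was 0.0003 and -0.018. The largest values were those of Bub1 (0.52, SE 0.17, limma adjusted p = 0.168) and Ect2 (0.50, SE 0.20, limma adjusted p = 0.269). Without adjustment, 30 members had a limma p under 0.05, all of them higher, where 7.11% of tested genes were higher and 7.10% lower. Both remaining vimentin-deficient arrays lay above all wild-type arrays in 23 of the 42 genes (11.9% of tested genes) and below them in 0 (17.3%). With array quality weights, which gave replicate 3 the lowest weight of the 6 arrays (0.226, others 0.985 to 2.23), the median was 0.17. The 42 genes move together and were read on the same 5 arrays, so these counts are not 42 separate observations.

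**Figure D4:**
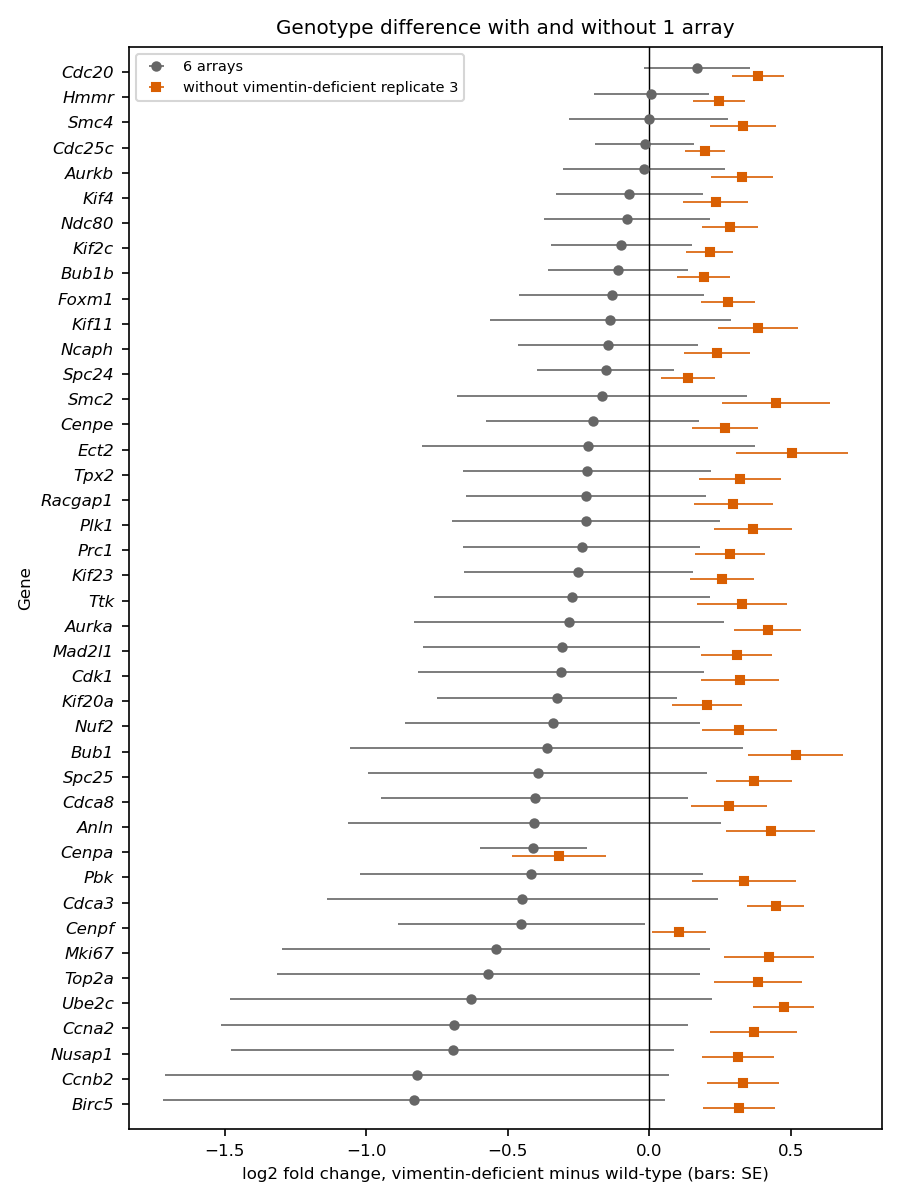
For each gene the log2 fold change, vimentin-deficient minus wild-type, is plotted with its SE from the fit of 6 arrays (grey circles) and from the fit without vimentin-deficient replicate 3 (orange squares). Of the grey points 40 lie below 0, and of the orange points 41 lie above it, with Cenpa the exception.

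The 5 arrays other than vimentin-deficient replicate 3 also held an order that nearly all members shared. Vimentin-deficient replicate 1 was the highest of the 6 arrays in 41 of 42 genes, as in 17.7% of tested genes, and exceeded replicate 2 in all 42 (51.8%), by a median of 0.20 log2 units. Wild-type replicate 2 was the lowest wild-type array in 40 genes (36.4% of tested genes), the exceptions being Cenpa and Ect2. Wild-type replicate 1 was the highest wild-type array in 36 genes (32.3%). The range among the 3 wild-type arrays had a median of 0.45 log2 units over the members against 0.13 over all tested genes. That range exceeds the median difference of 0.32 between the genotypes in the fit without replicate 3. A range and a difference of means are unlike measures, however. The median SD of the members among wild-type arrays was 0.24, and their median SE in that fit was 0.126. The wild-type range was widest for Pbk, which read 10.14, 9.35 and 9.81 on wild-type replicates 1, 2 and 3.

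Genes of the same pathway outside the 42 were read from lists written down with earlier results of these data known. Over the 6 arrays 0 of the 170 tested genes of these 8 lists passed the threshold of limma (0.00% of tested genes higher, 0.0223% lower). An unadjusted limma p under 0.05 was found for 1, E2f2, higher, where 3.01% of tested genes were higher and 4.96% lower. Without replicate 3 the median log2 fold changes of the lists lay between 0.02, for the anaphase-promoting complex, and 0.33, for the G1/S and DNA replication genes. In that fit 2 list genes passed, Cdkn3 and Ccnd2, both higher, where 1.31% of tested genes were called higher and 1.03% lower. Of 25 tested genes for other spindle, motor and cytokinesis proteins, 15 were over 1 log2 unit lower on vimentin-deficient replicate 3 (median -1.18). Over all tested genes the share that much lower was 1.71%. These 15 were led by Cep55, which acts in abscission, at -2.41, and Stmn1, a microtubule destabiliser, at -2.35. Of 18 other G2/M regulators 10 were that much lower (median -1.15), with Cdkn3 at -2.31 and Cdca5, which protects sister cohesion, at -2.04. Cdkn3, a phosphatase of cyclin-dependent kinases, rose by 0.42 without replicate 3 (limma adjusted p = 0.0435). Pttg1, the gene of securin, read higher on replicate 3, at 11.52 against 11.01 and 11.01 on replicates 1 and 2 and 10.83 to 10.91 on the wild-type arrays. Of 32 other kinetochore and centromere genes 11 were over 1 log2 unit lower (median -0.68), with Zwilch at -2.08 and Cenpi at -1.85.

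For the lists of the anaphase-promoting complex, of condensin and cohesin, and of DREAM, E2F and MYB factors, the medians on replicate 3 were closer to 0. Of the 14 tested genes of the anaphase-promoting complex 1, Ube2s, was over 1 log2 unit lower (median -0.23), where 1.71% of tested genes were. Ube2c and most of the complex it serves thus had different values. Of 13 condensin, cohesin and chromosome genes 2 were, Hmgb2 (-1.96) and Ncapg (-1.47), with a median of -0.36. Another condensin subunit gene, Ncapg2, read 10.82 on replicate 3 against 9.91 and 9.74 on replicates 1 and 2. Of 19 genes for DREAM, E2F and MYB factors 2 were, E2f8 (-1.37) and E2f7 (-1.13), both repressors, with a median of -0.22. E2f2, an activator, read 8.87, 8.74 and 8.82 in vimentin-deficient and 8.60, 8.36 and 8.41 in wild-type cells, with no overlap of the groups. The fit with 6 arrays gave 0.35 for it (SE 0.08, adjusted p of limma = 0.339), and the fit without replicate 3 also 0.35 (SE 0.09, adjusted p of limma = 0.0720).

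The G1/S and DNA replication genes resembled the members. Of 33 tested, 18 were over 1 log2 unit lower on replicate 3, where 1.71% of tested genes were. The median was -1.23 against -1.72 for the members, a difference that was not tested. Pclaf, a PCNA-binding protein, had -3.66, and Rrm2, a subunit of ribonucleotide reductase, -3.37. Their mean over wild-type replicates 1, 2 and 3 was 0.33, -0.30 and -0.03 relative to the wild-type mean, in the same order as the members on the same arrays. Of 16 tested CDK inhibitors, G1 cyclins and related genes, 3 were over 1 log2 unit lower on replicate 3 (1.71% of tested genes). Another 2 were over 1 log2 unit higher (0.937%). Cdkn1a and Btg1 among these are named after their values were seen. Ccnd1, the cyclin that growth factors induce, read 9.63 on replicate 3 against 12.11 and 12.08 on replicates 1 and 2. Cdkn1a, the CDK inhibitor p21, was lower there as well, with a difference of -1.10. The antiproliferative genes Btg2 and Btg1 read higher there, by 1.22 and 1.02, so that genes that restrain the cycle lay on both sides. Ccnd2 read 9.21, 8.93 and 7.55 in vimentin-deficient and 7.997, 8.097 and 7.999 in wild-type cells and rose by 1.04 without replicate 3 (limma adjusted p = 0.000218).

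**Figure D5:**
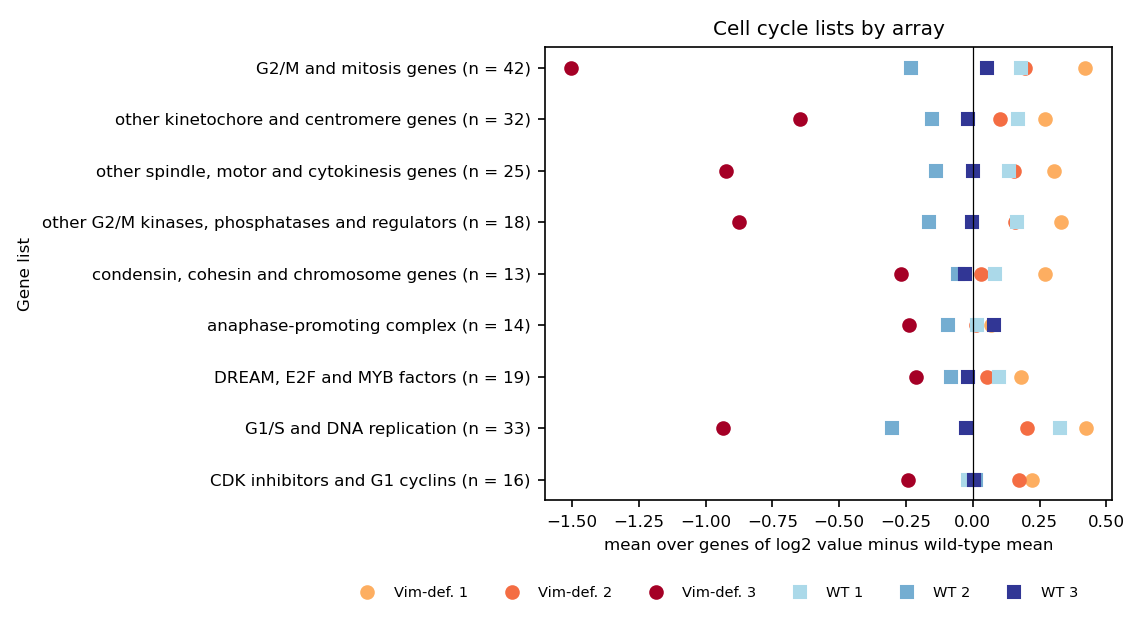
For each list the mean over its genes of the log2 value minus the wild-type mean is plotted for each array, circles for vimentin-deficient and squares for wild-type arrays. Vimentin-deficient replicate 3 is the lowest array in every list shown, at -1.50 for the G2/M and mitosis genes and -0.93 for the G1/S list.

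Markers of other cells were read beside these values. Of 6 measured stem and progenitor markers only Kit, the stem cell factor receptor, was over 1 log2 unit lower on replicate 3 (1.71% of tested genes). It read 7.20 there against 9.05 and 8.68 on replicates 1 and 2 and 8.52 to 8.64 in wild-type cells. The summed linear signal of the list was 1131 there against 1364 to 1441 in wild-type cells. The median difference on replicate 3 over the 6 markers was -0.07 log2 units, so the lower sum is not shared by the list. The 8 measured granulocyte and precursor markers summed to 1184 to 1315 in vimentin-deficient and 1286 to 1319 in wild-type cells, with the brightest, Elane, between 7.80 and 8.10. The B cell markers summed to 851 to 1379 in vimentin-deficient and 2078 to 2416 in wild-type cells, where Ighm, an immunoglobulin heavy chain, was the brightest. Of the 5 measured B cell markers 2 passed the filter on low signal. Among the macrophage markers, and chosen after their values were seen, Fcgr1, an Fc receptor, read 11.70 on replicate 3 against 9.98 and 10.21, and Mrc1, the mannose receptor, 11.39 against 12.84 and 12.72. No gene of the granulocyte list was over 1 log2 unit lower or higher on replicate 3 (1.71% and 0.937% of tested genes). Summed linear signals of the T and NK cell, erythroid, dendritic, stromal and mast cell lists lay between 514 and 1232 in every array. Their part in the values of the members was not tested.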

How the data were processed

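Total RNA of 6 macrophage cultures was hybridised, 1 sample to an array, after biotin labelling of cRNA per the labels' protocols. The values are log2 probe set values that the authors deposited in the series table, while the sources used here do not name the method of summary and normalization. The scale runs from 5.43 to 14.50 and array medians lie between 7.23 and 7.25, so no further normalization was made. Background signal is not separated from such values, and the number of arrays limits the precision.

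Of 45101 probe sets, 64 were controls, 34945 had 1 gene symbol in the platform annotation, 932 several and 9160 none, and 34741 were matched by Entrez ID to a mouse gene table (GRCm38.p6), used for names. A gene was read from its brightest probe set. The 13445 genes whose mean reached the 40th percentile of non-control probe sets (6.93) entered a fit by limma 3.58.1 (R 4.3.3, lmFit and eBayes with a variance trend, no covariate, Benjamini-Hochberg adjustment over all of them, threshold 0.05). The script was tested on simulated data. Their spread was taken from the arrays other than vimentin-deficient replicate 3, so recovery with such an array was not tested. A difference over 1 log2 unit on an array was counted without a test.

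The members and the gene lists were chosen with earlier results of these data known. Values on every array were given for the members of each role with the highest mean and with the largest and smallest difference of vimentin-deficient replicate 3. Ccna2, Plk1, Cdca3 and Top2a were added after their values were seen. From each pathway list the 2 genes with the smallest p and the 2 with the largest difference could be named, and from each marker list the 2 brightest. Promoter windows came from RefSeq.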

Additional observations from a re-analysis of the deposited data

How the results depend on the processing

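Quantile normalization, median centring, no filter, a filter at the 60th percentile and a fit without the variance trend reversed no log2 fold change of the 19 members whose array values are given by the rule, of which Cdc25c lies below the stricter filter. Array quality weights moved the genes past the threshold from 0 to 52 higher and from 3 to 41 lower, and the member median to 0.17. They turned the sign of Bub1 (0.32), Smc4 (0.28), Aurkb (0.26), Anln (0.24), Mki67 (0.20), Spc25 (0.19), Ube2c (0.18), Foxm1 (0.17), Pbk (0.16), Cdc25c (0.15), Cdk1 (0.15), Kif23 (0.12), Cdca8 (0.11), Nusap1 (0.0637), Ccnb2 (0.0175) and Birc5 (0.0087).

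The mean over all probe sets turned Cdc20 (-0.13), Hmmr (-0.25) and Smc4 (0.0122), and the second-brightest probe set turned Cdc20 (-0.60), Hmmr (-0.46), Smc4 (0.14), Aurkb (0.0112) and Cenpa (0.0016). The member mean on vimentin-deficient replicate 3 was -1.22 and -1.14 under these settings, against -1.50. Probe sets below the filter value enter this mean under either setting, and they enter the log2 fold changes of the first.

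Leaving out each array in turn gave 0 to 176 genes past the threshold higher and 0 to 139 lower, 0 to 1 members higher, and a member median of -0.61 to 0.32. Only the fit without vimentin-deficient replicate 3 gave a positive median. Single genes ranged from -0.91 to 0.43 for Anln, -0.24 to 0.33 for Aurkb, -1.43 to 0.32 for Birc5, -0.89 to 0.52 for Bub1, -1.44 to 0.33 for Ccnb2, -0.16 to 0.20 for Cdc25c, -0.82 to 0.28 for Cdca8, -0.66 to 0.32 for Cdk1, -0.39 to 0.28 for Foxm1, -0.16 to 0.25 for Hmmr, -0.56 to 0.26 for Kif23, -1.11 to 0.42 for Mki67, -1.26 to 0.31 for Nusap1, -0.85 to 0.33 for Pbk, -0.25 to 0.33 for Smc4, -0.82 to 0.37 for Spc25 and -1.21 to 0.47 for Ube2c. Cdc20 stayed above 0 (0.0154 to 0.38) and Cenpa below it (-0.62 to -0.29) in these fits. Vim ranged from -6.28 to -5.66. Its limma adjusted p was 0.0527, 0.0501 and 0.0766 without wild-type replicates 1, 2 and 3, so it missed the threshold there. It passed in the fits that left out a vimentin-deficient array. The causes of these turns were not tested beyond what the settings themselves leave out.

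With the replicate number as a block, 0 members and 0 genes passed the threshold, Vim included (-5.89), and the member median was -0.26. The deviations of same-numbered arrays from their group means correlated at 0.50, -0.19 and 0.06. Those of differently numbered arrays correlated at -0.50 to 0.41. With so few arrays in a group and vimentin-deficient replicate 3 standing apart, these values cannot decide whether the numbers mark pairs.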
